A study of Mus musculus with 4 samples.

Results

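The collagen genes of the mouse were examined for histone H3 trimethylated at lysine 4 (H3K4me3), which marks active promoters, in heart tissue. The members were the protein-coding genes of GENCODE M21, on the build mm10, whose symbols consist of Col, a number, the letter a and a number. There were 44 such genes among the 21670 protein-coding genes counted, which leave out chromosome Y and mitochondrial DNA. Chromatin immunoprecipitation followed by sequencing (ChIP-seq) with an H3K4me3 antibody was applied to frozen hearts of female B6CASTF1/J mice aged 2 months, first-generation hybrids of the C57BL/6J and CAST/EiJ strains, with no treatment named. Pool G and pool H each joined 2 heart biosamples and gave 2 technical replicates, 4 libraries in all with fragments of 200 to 600 bp. The labels number pool G as biological replicate 1 and pool H as biological replicate 2. Both pools name the same donor record, however, so whether they held separate animals is not stated. All libraries share strain, sex, age and tissue, so no treated or mutant group was compared. The values were 4 lists of peaks: pool G's own list of 24826 peaks, pool H's own list of 21505 peaks, a pseudoreplicated list of both pools with 26412 peaks and a replicated list of both pools with 24996 peaks. The replicated list is meant where no list is named. The lists overlap in their reads, since 24037 replicated peaks were identical to a peak of the pseudoreplicated list. The sources used here do not give the read depth.

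Collagens are secreted or membrane proteins whose chains wind around each other into a rope-like helix. Fibrillar collagens, above all types I and III, form the stiff fibrils of the cardiac interstitium and are made mainly by fibroblasts. Type IV collagens form the sheet-like networks of basement membranes around muscle cells and vessels, and their genes lie as head-to-head pairs that share a promoter region. Types II, IX, X and XI are known as the collagens of cartilage, which is made by chondrocytes. The genes were grouped by these roles, with 8 fibrillar, 6 basement membrane and 7 cartilage members and 23 members of other classes.

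A promoter was taken as 1000 bp on either side of any annotated start of a coding transcript. A gene counted as marked where a peak shared 1 bp or more with such a window. The fold enrichment of a gene is the deposited signal value, read as a ratio to a control, of its highest promoter peak, and the width of its domain is that of peaks joined across gaps of up to 1000 bp. As classed here, all 8 fibrillar and all 6 basement membrane collagens were marked, against 3 of 7 cartilage collagens. Each of these 3 had a weak and narrow peak. Together 32 of 44 collagens (72.7%) had a promoter peak, beside 63.0% of all protein-coding genes. In pool G's own list 31 (70.5%) were marked, beside 63.4% of all genes, and in pool H's own list 27 (61.4%), beside 61.3%. The pseudoreplicated list marked 31, beside 63.4%. In pool H the family's share was thus near that of all genes. In tissue, fewer marked cells and a weaker mark per cell cannot be told apart.

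The promoters of 9 members are shown. Of the fibrillar class these are the ones with the highest fold enrichment and the widest domain in the replicated list. The others are the facing starts of the basement membrane pairs and a marked and an unmarked cartilage gene. Each sequence holds 250 bases before the RefSeq start and 50 from it on, from RefSeq on GRCm38.p6, the assembly of mm10. It is written along its gene from 5' to 3', with every CpG in capitals. RefSeq starts can differ from the GENCODE starts used for the peaks. The fibrillar promoters are those of Col5a1 (chr2:27886175-27886474, plus strand), with the highest fold enrichment of its class in that list, and Col3a1 (chr1:45311288-45311587, plus strand), with the widest domain.
Col5a1: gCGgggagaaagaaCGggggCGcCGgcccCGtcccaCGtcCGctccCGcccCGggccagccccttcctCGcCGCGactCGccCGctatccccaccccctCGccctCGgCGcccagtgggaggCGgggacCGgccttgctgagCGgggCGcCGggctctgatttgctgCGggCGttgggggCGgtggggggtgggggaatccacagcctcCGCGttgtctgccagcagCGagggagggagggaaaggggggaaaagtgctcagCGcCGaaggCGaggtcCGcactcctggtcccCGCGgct
Col3a1: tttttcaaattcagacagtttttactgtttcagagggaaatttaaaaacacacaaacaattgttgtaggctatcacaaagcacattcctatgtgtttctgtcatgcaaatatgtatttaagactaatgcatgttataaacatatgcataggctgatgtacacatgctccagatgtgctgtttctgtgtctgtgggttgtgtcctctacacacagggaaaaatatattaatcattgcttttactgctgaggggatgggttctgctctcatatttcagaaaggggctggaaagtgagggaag
Col5a1 held 34 CpG in these 300 bases and Col3a1 held 0, against a median of 14 over 20054 promoters of protein-coding genes.

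The head-to-head starts of type IV collagens are shown by the promoters of Col4a1 (chr8:11312777-11313076, minus strand) and Col4a2 (chr8:11312555-11312854, plus strand), which overlap, of Col4a4 (chr1:82586800-82587099, minus strand), whose window also holds the GENCODE start of Col4a3, and of Col4a5 (chrX:141475169-141475468, plus strand) and Col4a6 (chrX:141474027-141474326, minus strand).
Col4a1: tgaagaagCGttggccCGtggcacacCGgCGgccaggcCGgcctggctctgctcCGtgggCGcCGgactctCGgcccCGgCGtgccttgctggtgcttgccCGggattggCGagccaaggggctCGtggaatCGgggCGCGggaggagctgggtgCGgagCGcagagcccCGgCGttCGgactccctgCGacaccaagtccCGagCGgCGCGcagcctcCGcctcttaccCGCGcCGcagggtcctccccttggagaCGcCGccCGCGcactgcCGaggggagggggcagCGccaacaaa
Col4a2: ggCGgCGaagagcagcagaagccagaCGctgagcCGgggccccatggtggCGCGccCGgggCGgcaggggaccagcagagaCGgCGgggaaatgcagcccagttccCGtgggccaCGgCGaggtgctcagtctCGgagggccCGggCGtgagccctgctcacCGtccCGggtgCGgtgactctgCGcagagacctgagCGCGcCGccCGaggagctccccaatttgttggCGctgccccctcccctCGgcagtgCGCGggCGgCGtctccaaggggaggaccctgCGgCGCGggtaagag
Col4a4: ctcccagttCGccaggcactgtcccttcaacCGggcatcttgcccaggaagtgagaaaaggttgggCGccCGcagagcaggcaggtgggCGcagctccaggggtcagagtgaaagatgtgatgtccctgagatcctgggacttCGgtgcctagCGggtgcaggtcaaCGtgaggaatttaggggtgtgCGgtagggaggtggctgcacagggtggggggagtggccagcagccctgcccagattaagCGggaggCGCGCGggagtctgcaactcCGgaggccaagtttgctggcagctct
Col4a5: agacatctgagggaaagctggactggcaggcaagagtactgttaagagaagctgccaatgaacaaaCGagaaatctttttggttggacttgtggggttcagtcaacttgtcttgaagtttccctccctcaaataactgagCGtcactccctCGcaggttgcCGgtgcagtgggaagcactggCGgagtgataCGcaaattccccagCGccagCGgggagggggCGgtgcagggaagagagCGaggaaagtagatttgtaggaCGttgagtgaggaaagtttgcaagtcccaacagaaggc
Col4a6: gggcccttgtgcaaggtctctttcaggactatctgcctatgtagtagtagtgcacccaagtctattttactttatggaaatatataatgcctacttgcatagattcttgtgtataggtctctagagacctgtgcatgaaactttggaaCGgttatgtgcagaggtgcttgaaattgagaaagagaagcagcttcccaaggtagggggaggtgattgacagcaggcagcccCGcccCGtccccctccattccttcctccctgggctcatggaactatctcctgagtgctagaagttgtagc
The CpG counts were 37 in Col4a1, 33 in Col4a2, 14 in Col4a4, 11 in Col4a5 and 3 in Col4a6.

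Of the cartilage genes, Col9a2 (chr4:121039316-121039615, plus strand) was marked in all 4 lists and Col11a2 (chr17:34038888-34039187, plus strand) in none.
Col9a2: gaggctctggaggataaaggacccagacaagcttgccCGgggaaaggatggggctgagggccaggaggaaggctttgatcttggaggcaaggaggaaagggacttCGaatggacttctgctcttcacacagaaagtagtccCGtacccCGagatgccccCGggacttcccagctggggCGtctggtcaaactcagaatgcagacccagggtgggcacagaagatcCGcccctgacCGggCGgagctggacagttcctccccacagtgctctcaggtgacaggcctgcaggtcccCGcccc
Col11a2: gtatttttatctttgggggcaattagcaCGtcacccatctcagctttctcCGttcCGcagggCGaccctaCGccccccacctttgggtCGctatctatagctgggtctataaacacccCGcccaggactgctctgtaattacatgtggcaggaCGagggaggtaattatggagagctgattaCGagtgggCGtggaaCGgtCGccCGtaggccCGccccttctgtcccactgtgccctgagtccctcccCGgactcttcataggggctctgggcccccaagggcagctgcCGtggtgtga
The printed sequence of the unmarked Col11a2 held 16 CpG and that of the marked Col9a2 held 10. The one of Col11a2 does not reach the GENCODE starts used for the peaks. In the windows of 1000 bp on either side of the GENCODE starts, Col9a2 held 70 CpG and Col11a2 at most 68. The table of promoters covered 35 of the 44 collagens with 38 promoters. The GC box GGGCGG, a site known for Sp1, was present on either strand in 60.5% of these 38 promoters and in 47.9% of all 20054. CCAAT was present in 34.2% of the collagen promoters and 37.9% of all, and TATAAA in 13.2% and 12.1%. GGGCGG contains a CpG, so its share can move with CpG content. The 38 collagen promoters held a median of 11.5 CpG in 300 bases, against 14 over all 20054. Why their share of GGGCGG was higher was not tested, and a match of letters is not a binding site. Counted from the first base printed, GGGCGG or its reverse stood at bases 46 and 178 of Col5a1, at 225, 237 and 294 of Col9a2 and at 118 and 213 of Col11a2, while Col3a1 and Col4a4 held none. TATAAA or its reverse stood at base 134 of Col3a1 and base 108 of Col11a2.

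The 8 fibrillar collagens as classed here, without types II and XI, were all marked. Their median fold enrichment lay below that of all genes, and their peaks lay mainly on the gene side of the start. As a class they exceeded the median width of all genes mainly where neighbouring peaks were joined. Their median domain was 2469 bp, against 1799 bp over all genes with a peak, while their median fold enrichment was 6.17, against 15.3. Of the 8 members 7 had a domain wider than the all-gene median, which 50.0% of all genes with a peak exceed, and 1, Col5a1, had a fold enrichment above the all-gene median. The width rests on the joining of peaks: with no gap joined, the fibrillar median was 1664 bp, against 1627 bp over all genes, and 4 of 8 members exceeded it. In pool H's own list 5 of the 7 marked members exceeded the all-gene median. The pools' own lists gave median fibrillar widths of 2579.5 bp for pool G and 2218 bp for pool H, a mean of 2398.75 ± 255.6 bp (SD, n = 2 pools), against 1786 ± 149.9 bp for all genes. With types II and XI counted as fibrillar, 10 of 11 genes were marked, beside 63.0% of all genes. In pool G's list it was then 8 of 11, beside 63.4%, and in pool H's list 7 of 11, beside 61.3%.

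The chains of type I and type III collagen, the main fibril proteins of the heart, had joined domains wider than the all-gene median and fold enrichments below it. Col1a1, the first chain of type I (chromosome 11, 94936224 to 94953042), had a fold enrichment of 7.36 in pool G's list, 3.03 in pool H's list and 5.41 in the replicated list. Its domain measured 2321 bp in pool G, 2106 bp in pool H and 2147 bp in the replicated list. The replicated peak began 29 bp inside the gene and ended 2175 bp from the start, so the start itself lay outside it. In pool G's list the peak began at base 94936223 and so only just covered the start, and in pool H's list it began 65 bp inside the gene. Col1a2, the second chain of type I (chromosome 6, 4504814 to 4541544), stood at 9.66 in pool G, 5.06 in pool H and 6.92 in the replicated list, with domains of 2989, 2218 and 2862 bp. Its highest peak lay around the second of its 2 annotated starts, at 4505493, and reached 1614 bp beyond it. Col3a1, the chain of type III (chromosome 1, 45311538 to 45349706), stood at 5.63 in pool G, 4.29 in pool H and 4.35 in the replicated list. Its replicated domain of 4611 bp was the widest of the class in that list only, since Col5a1 was wider in the other 3, and it was wider than 95.5% of all promoter domains, yet its fold enrichment exceeded that of only 4.96% of marked genes. The domain was made of 5 peaks, and the strongest of them, with a fold enrichment of 5.71, lay 2421 bp inside the gene, beyond the promoter window. That inner peak had 7.42 in pool G and 4.62 in pool H, so in both pools it was higher than the peak at the start. The Col3a1 domain was narrower in the pools' own lists, with 2809 bp for pool G and 2755 bp for pool H.

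Type V collagen, which starts fibrils and limits their diameter, was marked at all 3 genes. Col5a1 (chromosome 2, 27886425 to 28039514) had 21.2 in pool G, 11.8 in pool H and 16.4 in the replicated list, the highest fibrillar value in each of these lists except that of pool H, where Col27a1 stood higher. Its domain of 4198 bp in the replicated list measured 3104 bp for pool G and 2962 bp for pool H, since the outer peak 3156 bp inside the gene was not called in either pool alone. Only the first of its 2 annotated starts was marked. Col5a2 (chromosome 1, 45374321 to 45503282) stood at 12.3 in pool G, 6.63 in pool H and 9.43 in the replicated list, the highest value of a fibrillar gene with a CpG-poor promoter. Its peak reached 2314 bp into the gene and 203 bp upstream, with widths of 2663 bp for pool G, 2375 bp for pool H and 2518 bp in the replicated list. Col5a3 (chromosome 9, 20770050 to 20815067) stood lower, at 6.82 in pool G, 3.86 in pool H and 5.29 in the replicated list.

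The minor fibrillar collagens lay at opposite ends of the class. Col27a1 (chromosome 4, 63214004 to 63334991), a short-fibril collagen known from cartilage, had 16.5 in pool G, 12.3 in pool H and 14.2 in the replicated list. Its domain measured 2496 bp in pool G, 1171 bp in pool H and 2420 bp in the replicated list, and a separate peak upstream of the coding start, of 5.08 in pool G and 4.13 in the replicated list, had no counterpart in pool H. Col24a1 (chromosome 3, 145292472 to 145552011), a gene known from bone, was the weakest fibrillar member, at 4.92 in pool G and 3.65 in the replicated list, and had no promoter peak in pool H's list. It was the fibrillar gene lost in that list, which marked 7 of 8.

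**Figure D1:**
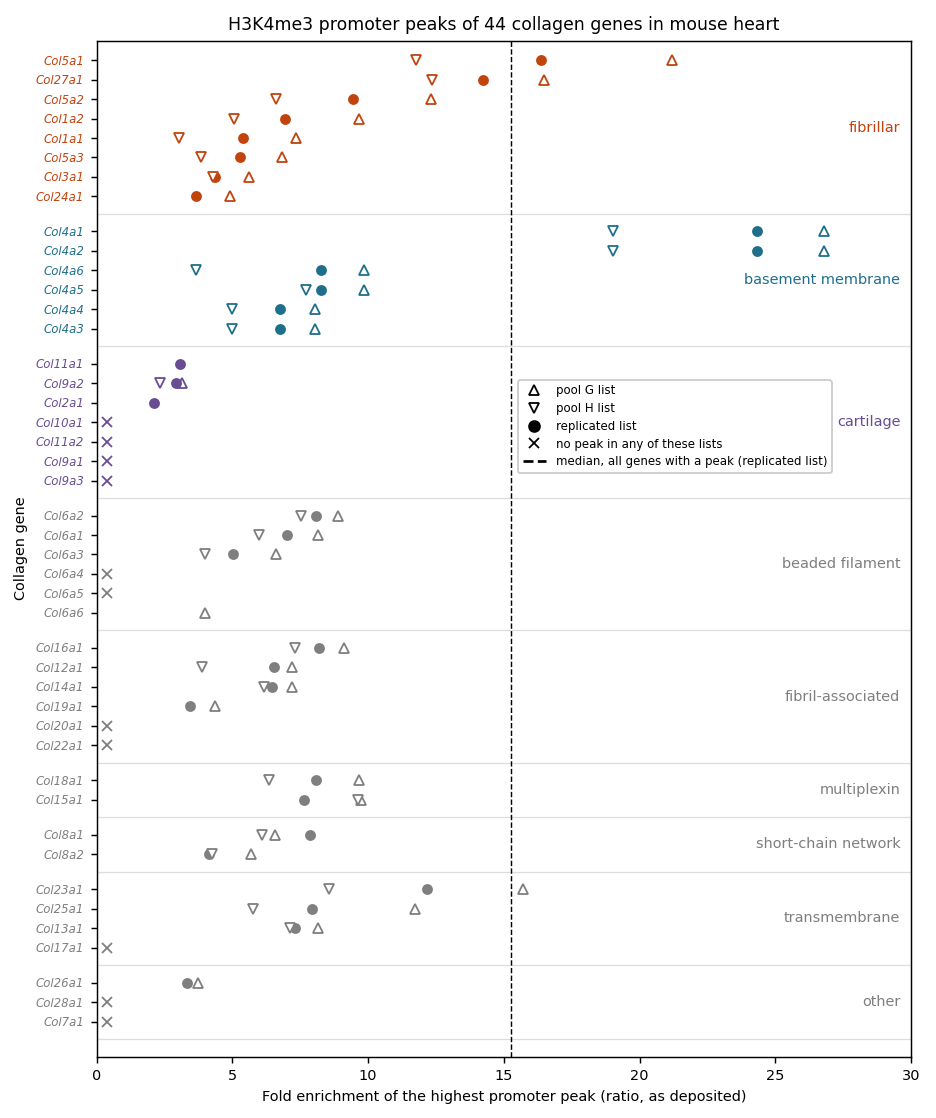
Fold enrichment of the highest promoter peak (x axis, ratio as deposited) of each of the 44 collagen genes (y axis), by class, in the lists of pool G (upward triangles), pool H (downward triangles) and both pools replicated (dots). Crosses, placed near 0 for display, stand for genes with no promoter peak in these lists, and the dashed line is the median of 15.3 over all genes with a peak in the replicated list. Col4a1, Col4a2 and Col5a1 lie right of the line in the replicated list, and the cartilage genes lie at 3.16 or below or have no peak.

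The basement membrane collagens were marked at all 6 genes in every list, but unevenly between the 3 pairs. The ubiquitous chains Col4a1 and Col4a2 shared a peak that was both the strongest and the widest of the family, and the other pairs, whose chains are known from kidney, eye and ear among other sites, had fold enrichments below the all-gene median, with domain widths that for Col4a5 and Col4a6 differed between lists. Because paired genes share peaks, the 6 genes do not give 6 separate values.

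Col4a1 (chromosome 8, 11198423 to 11312826) and Col4a2 (11312805 to 11449287) run in opposite directions, and the annotated genes overlap by 22 bp at their starts. Their common peak spanned 11308926 to 11316319, a width of 7394 bp, with a fold enrichment of 26.8 in pool G, 19.0 in pool H and 24.3 in the replicated list. The joined domain measured 8575 bp in pool G, 7603 bp in pool H and 8930 bp in the replicated list, and was wider than 99.6% of promoter domains, while the fold enrichment exceeded that of 97.1% of marked genes. The peak reached 3900 bp into Col4a1 and 3514 bp into Col4a2, so it extended about equally to both sides. Col4a1 had a further marked start inside the gene, at 11279656, with a peak of 4.73 in pool G, 3.28 in pool H and 3.84 in the replicated list. This inner peak covered that start in all 4 lists.

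Col4a3 (chromosome 1, 82586921 to 82722059) and Col4a4 (82448423 to 82586849), both mutated in Alport syndrome in humans, have their coding starts 127 bp apart and shared a single promoter peak. Its fold enrichment was 8.04 in pool G, 4.98 in pool H and 6.77 in the replicated list. The peak measured 1435 bp in pool G, 1236 bp in pool H and 1358 bp in the replicated list, and covered both starts. It was thus narrower than the all-gene median in each pool.

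Col4a5 (chromosome X, 141475385 to 141689234) and Col4a6 (141165403 to 141474076) have their starts 1309 bp apart, and each had a peak of its own. The Col4a5 peak stood at 9.85 in pool G, 7.71 in pool H and 8.27 in the replicated list and covered the Col4a5 start. The Col4a6 peak was weaker, at 3.98 in pool G, 3.66 in pool H and 3.75 in the replicated list, measured 390 bp in the replicated list and began 49 bp inside the gene. The edge of the Col4a5 peak fell within the promoter window of Col4a6, 993 bp from its start, so the fold enrichment of 8.27 counted for Col4a6 is that of its neighbour. The Col4a5 domain measured 4103 bp in pool G but 1142 bp in pool H, 1200 bp in the replicated list and 2648 bp in the pseudoreplicated list, as further peaks lay close enough to be joined in pool G and in the pseudoreplicated list. The median width of the class was 4103 bp for pool G, where it is the value of this pair, 1236 bp for pool H, 1358 bp in the replicated list and 2648 bp in the pseudoreplicated list. Over the pools it averaged 2669.5 ± 2027.3 bp (SD, n = 2), too wide a spread to set the class apart from all genes.

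The cartilage collagens, as classed here, were marked in 3 of 7 genes, and none of them strongly. Col27a1, also known from cartilage, was counted as fibrillar throughout and stood at 14.2. Col9a2 (chromosome 4, 121039385 to 121055322), a chain of the fibril-associated type IX, was the only cartilage gene marked in all 4 lists. Its peak stood at 3.16 in pool G, 2.33 in pool H and 2.94 in the replicated list, measured 563, 460 and 549 bp, and began 150 bp inside the gene. Col11a1 (chromosome 3, 114030540 to 114220718), a chain of type XI, had a peak of 187 bp in the replicated list, with a fold enrichment of 3.07, that ended 49 bp before the start. It was also in the pseudoreplicated list but in neither pool's own list. Col2a1 (chromosome 15, 97975602 to 98004695), the main fibril chain of cartilage, had a peak of 356 bp in the replicated list only, with a fold enrichment of 2.11 and a -log10 q of 0.476, the lowest of the marked collagens. With a -log10 q of at least 5, none of the 7 cartilage genes kept a peak, while 61.4% of all protein-coding genes did. No list held a promoter peak at Col9a1, Col9a3, Col10a1, the gene of hypertrophic cartilage, or Col11a2.

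Markers of chondrocytes, the cells of cartilage, were marked at about the share of all genes in the replicated list, but below it in pool H's list. Of 8 listed chondrocyte genes 5 had a promoter peak, beside 63.0% of all protein-coding genes. Pool G's list marked 6, beside 63.4%, and pool H's list 3, beside 61.3%. Hapln1 stood highest at 6.06, with no peak in pool H's list. Sox9, the transcription factor of cartilage and valve cells, followed at 5.90. Comp, Matn3 and Chad stood at 3.36, 3.82 and 2.05, and Acan, Matn1 and Cnmd had no peak in the replicated list. The -log10 q was 3.78 for Comp and 0.81 for Chad, both under 5. Acan had 4.17 in pool G's list. Whether chondrocyte-like cells contribute to the cartilage values was not tested.

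**Figure D2:**
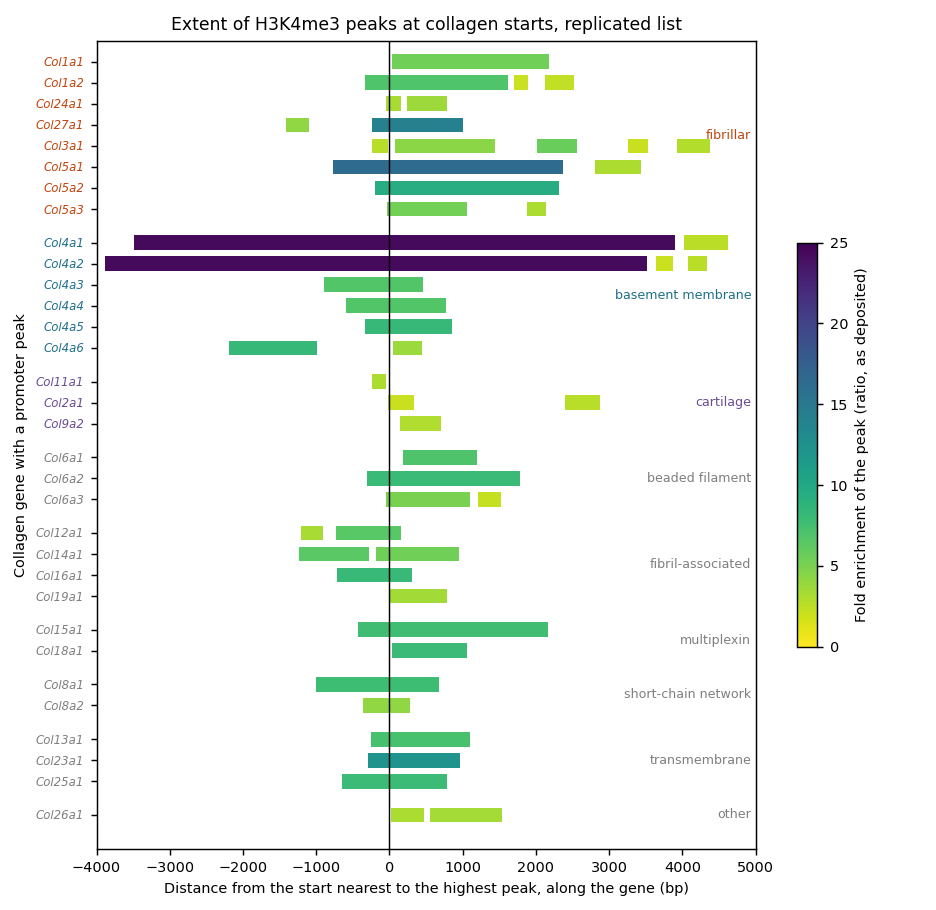
Peaks of the replicated list around the start nearest to the highest promoter peak, for the 32 marked collagens (y axis), with distance along the gene on the x axis (bp, positive into the gene) and fold enrichment as colour. Bars are peaks. The Col4a1 and Col4a2 peak extends to both sides of the start, the fibrillar peaks lie mostly right of it, and the cartilage peaks are short.

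The position of the peak also differed between the classes. In the fibrillar genes the highest peak reached a median of 1530.5 bp into the gene and 117 bp upstream of the start, against 986 bp and 566 bp over all genes with a peak. In the basement membrane genes it reached 814 bp into the gene and 1544.5 bp upstream, where the partner gene lies. With the own peak of Col4a6 in place of its neighbour's, the upstream median was 742 bp and the downstream one again 814 bp, and the shared peaks count for both of their genes. Over all 32 marked collagens the medians were 988.5 bp into the gene and 305 bp upstream. A start lay inside a promoter peak in 24 of the 32 marked collagens (75.0%), against 93.6% of all genes with a peak. The 8 others were Col1a1, Col3a1, Col4a6, Col6a1, Col9a2, Col11a1, Col18a1 and Col26a1. The summit of the highest peak lay downstream of the start in 23 of 32, beside 77.5% of all genes with a peak. These positions depend on where the annotation puts the start.

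The 23 collagens of the other classes were marked in part: 3 of 6 beaded filament, 4 of 6 fibril-associated, 2 of 2 multiplexin, 2 of 2 short-chain and 3 of 4 transmembrane genes, and 1 of 3 others. Together this is near the 63.0% of all genes. Of the beaded filament collagens of type VI, which link cells to the interstitial matrix, Col6a1, Col6a2 and Col6a3 were marked in all 4 lists. They stood at 7.02, 8.08 and 5.02, with domains of 1008, 2095 and 1571 bp. Col6a4 and Col6a5 were unmarked in every list, and Col6a6 had a peak, of 3.98, in pool G's list only. Among the fibril-associated collagens, Col12a1, Col14a1 and Col16a1, which decorate fibrils, were marked in all 4 lists, at 6.54, 6.44 and 8.20, with domains of 1373, 2184 and 1019 bp. Col14a1 was split into 2 peaks in pool H, with the higher one, of 6.17, upstream of the start, and was a single peak of 7.19 across the start in pool G. Col19a1 stood at 4.35 in pool G and 3.46 in the replicated list and was unmarked in pool H's list, and Col20a1 and Col22a1 were unmarked throughout.

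The multiplexins Col15a1 and Col18a1, proteoglycan collagens of basement membrane zones, were both marked in every list. Col15a1 stood at 9.73 in pool G, 9.64 in pool H and 7.64 in the replicated list, with a domain of 2599 bp, and Col18a1, the precursor of endostatin, at 9.66, 6.36 and 8.08, with a domain of 1027 bp. Both have 5 annotated starts on the coding transcripts, and in each 1 of these had a marked window, the most upstream one. The short-chain collagens of vessel walls, Col8a1 and Col8a2, stood at 7.84 and 4.13, with domains of 1678 and 644 bp. Of the transmembrane collagens, Col13a1, Col23a1 and Col25a1 were marked in all 4 lists, at 7.31, 12.2 and 7.93, with domains of 1348, 1267 and 1439 bp. Col23a1 had the highest value outside the fibrillar and basement membrane classes in the replicated list and, with 15.7, in pool G, while its 8.57 in pool H was below that of Col15a1. Col17a1, a collagen of epithelial hemidesmosomes, was unmarked, as was Col7a1, which forms the anchoring fibrils of skin, and Col28a1. Col26a1 stood at 3.75 in pool G and 3.35 in the replicated list and was unmarked in pool H's list.

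Of the 44 collagens 27 were marked in every list, beside 61.1% of all protein-coding genes. A further 11 were marked in none and 6 in some lists only. The shares of all genes marked in none or in some lists only were not counted. The 6 that varied were Col2a1, Col6a6, Col11a1, Col19a1, Col24a1 and Col26a1. Between the pools' own lists, 4 collagens were marked in pool G and not in pool H, namely Col6a6, Col19a1, Col24a1 and Col26a1, beside 2.27% of all genes. None was marked in pool H and not in pool G, beside 0.148%. These 4 had fold enrichments of 3.75 to 4.92 in pool G, where the all-gene median was 18.2, and pool G's list is also the longer one.

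Promoter CpG content separated part of the family. A promoter was called high-CpG where, in the window of any start, CpG was found at 0.6 or more of the frequency its base composition predicts and G and C made up a share of 0.5 or more. Only 11 of 44 collagens (25.0%) were high-CpG, against 33.7% of all genes, and all 11 were marked, beside 96.7% of high-CpG genes overall. Pool G's list marked all 11, beside 96.8%, and so did the pseudoreplicated list, while the list of pool H marked 9, beside 95.4%. Of the 33 low-CpG collagens 21 were marked (63.6%), beside 46.0% of low-CpG genes overall. In pool G's list it was 60.6% beside 46.4%, and in that of pool H 54.5% beside 43.9%. The low-CpG fibrillar genes were marked in 6 of 6 cases, the low-CpG basement membrane genes in 4 of 4 and the cartilage genes, all low-CpG, in 3 of 7. Pool H's list marked 5 of the 6 fibrillar genes, and each pool's own list marked 1 of the 7 cartilage genes. The basement membrane genes are pairs that share peaks, so they do not give 4 separate values.

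High CpG content did not come with a high fold enrichment in every member. Every collagen above a fold enrichment of 9.43, the value of Col5a2, was high-CpG: Col4a1, Col4a2, Col5a1, Col27a1 and Col23a1. Yet Col19a1, with the highest CpG ratio of the family at 0.817, stood at 3.46, and Col26a1 at 3.35. The median fold enrichment was 7.93 over high-CpG collagens, against 16.8 over all marked high-CpG genes, and 6.77 over marked low-CpG collagens, against 13.4. The collagen median was thus the lower one in both CpG classes. Col3a1 and Col6a1, with the lowest CpG ratios among marked members at 0.154 and 0.152, were marked in all 4 lists.

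**Figure D3:**
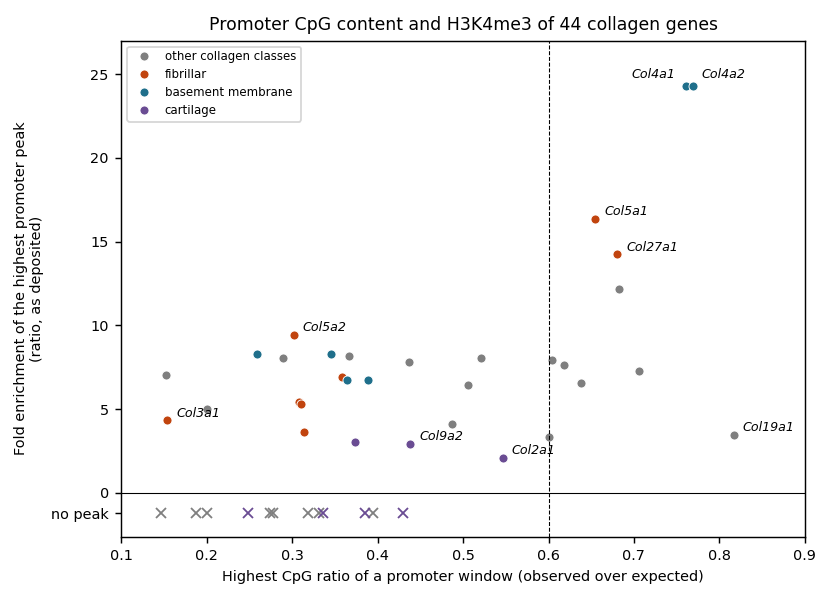
Fold enrichment of the highest promoter peak in the replicated list (y axis, ratio as deposited) against the highest observed over expected CpG ratio of a promoter window (x axis) for 44 collagens, with genes without a peak as crosses in the bottom row. The dashed line marks the ratio of 0.6. All genes without a peak lie left of it, together with 21 marked ones.

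Set beside all genes with a peak, the marked collagens had a lower median fold enrichment and a narrower median domain, a difference that was not tested. The median fold enrichment of the 32 marked collagens was 6.97, against 15.3, and 3 of 32 lay above the all-gene median, which 50.0% of all genes exceed. Among these 3 are Col4a1 and Col4a2, which share a peak. The other type IV pairs also share values, so the 32 genes do not give 32 separate values. The median in the pools' own lists was 8.14 in pool G, where all genes had 18.2, and 6.10 in pool H, where all genes had 12.9. The median domain width was 1406 bp, against 1799 bp, and 12 of 32 lay above it, 7 of them fibrillar and 2 of them basement membrane genes. In 4 of the 32, the highest peak had a -log10 q under 5, which holds for 2.51% of all genes with a peak, and 3 of these 4 were the marked cartilage genes.

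**Figure D4:**
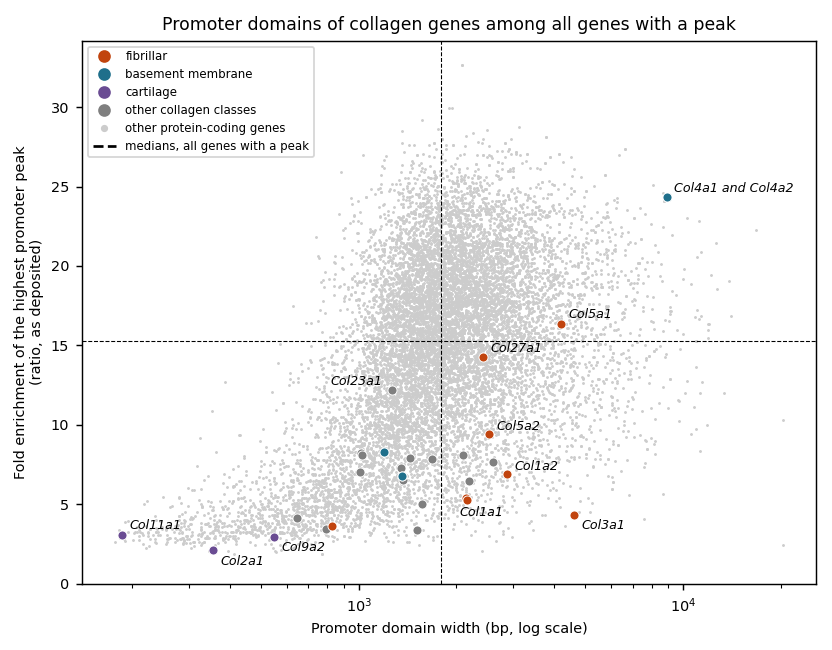
Fold enrichment of the highest promoter peak (y axis, ratio as deposited) against domain width (x axis, bp, log scale) in the replicated list, for the marked collagens by class and for all other marked protein-coding genes (grey), with the all-gene medians dashed. Col4a1 and Col4a2 coincide at 8930 bp and 24.3, Col3a1 is wide and weak at 4611 bp and 4.35, and the 3 cartilage genes lie at 549 bp or less.

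Of 50 listed genes that make, process, bind or organise collagen, 44 had a promoter peak, beside 63.0% of all protein-coding genes. Each pool's own list marked 43 of them, beside 63.4% of all genes for pool G and 61.3% for pool H. The counts of the single lists, which hold 5 to 18 genes, also stand beside that 63.0%. Most genes of chain modification and of propeptide removal have high-CpG promoters, however, and 96.7% of high-CpG genes overall were marked. The related lists were not split by CpG content, and how they compare with the collagens was not tested. All 18 genes of chain modification and folding were marked, with a median fold enrichment of 17.3, led by P3h1, a prolyl hydroxylase, at 23.4, whose domain also holds the start of AU022252. P3h4 and Fkbp10 share 1 domain and so 1 value. The widest domain of that list was the 4857 bp of Plod1, a lysyl hydroxylase. P4ha3 was missing from pool G's list. All 8 genes of propeptide removal were marked, led by Bmp1, the main C-proteinase, at 14.6, and Tll1 had the widest domain, of 2625 bp. Of the 5 cross-linking oxidases 4 were marked, with Loxl3 highest at 18.1, in a domain that also holds the start of Dok1, and Loxl1 widest at 2628 bp. Loxl2 was unmarked, and Lox, which encodes lysyl oxidase, stood at 5.87.

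Receptors and fibril organisers were marked in part, the receptors near the 63.0% of all genes. Of 10 collagen receptors 7 had a peak, led by Itga1, the alpha 1 integrin chain, at 16.7 with a domain of 5832 bp, which also holds the start of the predicted gene Gm49395. Itga10, a chain known from chondrocytes, and Gp6 and Lair1, receptors of platelets and leukocytes, were unmarked. Of 9 fibril organisers 7 were marked, with Fn1, which encodes fibronectin, at 10.9. Sparc, a collagen-binding protein, had a domain of 8188 bp, and Fmod and Postn were unmarked. The median fold enrichment of the organisers was 4.13, and Dcn and Lum, proteoglycans of the fibroblast matrix, stood at 3.94 and 2.90 with domains of 3386 and 2959 bp. In pool H's list the Dcn domain measured 1379 bp, below the all-gene median of 1680 bp.

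Markers of the cells that could carry these marks were checked by the same rule, under which 63.0% of all protein-coding genes were marked. All 5 cardiomyocyte genes were marked, with Ryr2 highest at 11.1 and Myh6 widest at 20319 bp, and none of 4 hepatocyte genes was. All 5 fibroblast genes were marked, led by Gsn at 12.8, with Pdgfra at 5912 bp the widest, and 4 of them in pool H's list. All 5 endothelial genes were marked, led by Kdr at 17.2, with Erg at 9688 bp the widest. Of 5 mural genes 4 were marked, led by Cspg4 at 9.53 in a domain it shares with Odf3l1, while Rgs5 had a peak in pool G's list only. Which of these cells carry the collagen peaks was not tested.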

How the data were processed

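H3K4me3 peaks of heart from 2 pools were analysed. Per the deposited library notes, the 4 lists are narrowPeak files on the build mm10: 1 per pool, its technical replicates not separated, and 2 of both pools. The caller, its version and its threshold are not given in the sources used here, nor is read depth, so counting error could not be given. Each peak's deposited signal value was taken as its fold enrichment (a ratio over control), going by the values and by the notes, which name fold-change tracks. The deposited -log10 q value was used to describe weak peaks and as a filter in an alternative.

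Genes and starts came from GENCODE M21, and every peak lies within the chromosome lengths of mm10. CpG content was read from GRCm38.p6. Promoter sequences came from RefSeq. The rule for printing named Col2a1 and Col9a3, which had no sequence in the set used, so Col9a2 and Col11a2 were printed. Intervals were tested on simulated data against bedtools 2.31.1, with equal results. Python 3.11.15, numpy 2.4.6 and matplotlib 3.10.9 were used.

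The members, classes, related lists and rules were chosen with earlier results of these data known. By rule, every collagen is named, and of each related list the highest, the widest and the unmarked members; P4ha3, P3h4, Fkbp10, Lox, Dcn, Lum, Comp, Matn3 and Chad were added after their values were seen. The result of a further marker list is not reported here. Groups are described by counts and medians, without tests, because each pool gives 1 list. As alternatives, results were taken from each other list, with -log10 q restricted to 5 or more, with windows of 500 and 2000 bp, with the longest transcript, broader classes, gaps of 0 and 3000 bp, the nearest peak and CpG bounds of 0.5 and 0.7.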

Additional observations from a re-analysis of the deposited data

How the results depend on the processing

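Of 74 alternative values 65 stayed within 1.5 times of the count reported or, for a median, within 1 SD of the pools. That SD comes from the same 2 pools whose lists are among the alternatives, and a count of all members cannot rise. The lists also share reads, so this tally cannot show that the results are robust. The fibrillar members wider than all genes at the median numbered 7, and 4 with gaps of 0 bp. Those of the basement membrane numbered 2, and 4 in pool G's list, 4 in the pseudoreplicated list and 4 with gaps of 3000 bp. These width counts were added after seeing the data. Basement membrane collagens were marked in 6 of 6 cases under every list, window, transcript and q setting, and fibrillar collagens in 8 of 8, except 7 in pool H's own list. With broader classes the counts in the replicated list were 8 of 9 and 10 of 11. The broader fibrillar class was marked in 8 of 11 cases in pool G's own list, beside 63.4% of all genes. In pool H's own list it was 7 of 11, beside 61.3%, and the broader basement membrane count was 8 of 9 in both. The cartilage count of 3 moved most: pool G alone gave 1 and pool H alone gave 1, and the count was 0 with a -log10 q of at least 5 and 1 with broader classes, in which Col2a1, Col11a1 and Col11a2 count as fibrillar. The count of marked high-CpG collagens was 11 and became 4 with a CpG bound of 0.7, because only 4 collagens pass that bound. The count of marked collagens lay between 27, in pool H's own list, and 32. With the longest transcript only, Col18a1 lost its peak. Values rest on 2 pools, and depth, which limits what a missing peak can show, is unknown. No paired analysis was possible because each pool gives a single list and no test was run.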

Other observations

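Away from their promoter windows, collagen gene bodies held 23 peaks in the replicated list, of which 12 belonged to a promoter domain and 11, in 7 genes, did not. Such peaks were not counted over all genes, so these numbers cannot be called high or low. Col8a2 carried an exonic peak from 126296516 to 126297331 on chromosome 4, about 10037 bp into the gene, with a fold enrichment of 7.12, above the 4.13 of its own promoter peak. It had 9.28 in pool G and 5.01 in pool H. Col4a3 carried a peak from 82641455 to 82641881 on chromosome 1 with a fold enrichment of 4.61, seen in both pools at 5.11 and 4.05. The peak at the 3' end of Col23a1, with 15.3, covers the start of Phykpl. In Col2a1, a peak 2565 bp from the 5' end of the gene covered a start of a non-coding transcript of the gene and stood at 2.64, with 3.91 in pool G and 2.36 in pool H, so it was present in both pools while the peak at the coding start was in neither. Col25a1 held 3 further weak intronic peaks, of 2.56 to 3.26.

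Some marked collagen domains also hold starts of non-coding genes. These were Gm12426 at Col15a1 and Gm12963 at Col16a1, both annotated as antisense, Gm43921, of unclassified type, at Col1a2, the miRNA gene Gm47302 at Col3a1 and 2810430I11Rik at Col5a1. Which of the genes a peak belongs to cannot be told apart from these lists.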
